A study of Mus musculus with 43 samples.

Results

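The metabolic sgRNA library targeted 26 genes of RNA polymerases I, II and III with 130 sgRNAs, taken here as every row of the sgRNA table whose gene symbol starts with Polr. In all, the table lists 10640 sgRNAs, of which 250 are nontargeting controls and the rest are spread over 2078 genes with 5 sgRNAs per gene. By symbol, 5 of the genes were Polr1 (polymerase I), 11 were Polr2 (polymerase II) and 10 were Polr3 (polymerase III). No row carried the symbol Polrmt, the polymerase of mitochondria, and it was not analysed here. The rule used gene symbols and no measured value.

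RNA polymerase I transcribes the ribosomal RNA precursor in the nucleolus, RNA polymerase II transcribes messenger RNA, and RNA polymerase III makes transfer RNA, 5S ribosomal RNA and other small RNAs. Each enzyme is built around a pair of large catalytic subunits, Polr1a with Polr1b, Polr2a with Polr2b, and Polr3a with Polr3b. Some subunits belong to more than 1 enzyme. Polr1c and Polr1d sit in polymerases I and III, and Polr2e, Polr2f, Polr2h and Polr2l sit in polymerases I, II and III. Polr3g and Polr3gl are paralogues that occupy the same place in alternative forms of polymerase III. T cells that divide after activation enlarge their pool of ribosomes and transfer RNA.

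The screen used OT-I T cells, mouse CD8+ cells whose receptor recognizes ovalbumin, which carry a Cas9 knock-in and therefore cut the genome wherever their lentiviral sgRNA directs. Cells carrying a sgRNA were enriched by CD90.1, the reporter of the library vector, and injected into Rosa26-Cas9 recipient mice with a KPC_OVA tumour in the pancreas, a mouse pancreatic cancer line made to express ovalbumin. Mice received anti-PD-1 or control IgG, and at day 7 the transferred CD90.1+ cells were isolated by sorting from primary tumour, lungs, liver, peritoneal metastases, spleen, draining lymph nodes and nondraining lymph nodes. The reference was an aliquot of the same CD90.1+ cells taken at day 0, before transfer (T0). All groups, T0 included, share the Cas9 knock-in, the OT-I receptor and the library vector. Integrated sgRNAs were read from pooled genomic DNA, so fewer divisions, more cell death and less entry into an organ cannot be told apart, and neither the cut nor the loss of a subunit was measured.

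Of 43 samples, 41 libraries carry values, 3 of T0, 26 of the organs outside lymph nodes and 12 of lymph nodes. Liver anti-PD-1 is 1 library, whose spread had to be taken from the other groups, liver IgG and peritoneal metastases IgG are 2 each, and every other group is 3. For replicate 2 of peritoneal metastases under anti-PD-1, title and tissue label conflict (the label says spleen), and the title was followed. The labels call the replicates biological but tie them to no animals, so p-values measure the spread between these samples. The deposited signal had been normalized and batch-corrected, so read depth is unknown and no counting interval can be given. Summed signal ranged from 2882462 to 4228882 in T0, from 1788300 to 3590597 outside lymph nodes and from 2690302 to 4130054 in lymph nodes. The median signal of the nontargeting sgRNAs was 194 to 297 in T0 and 103 to 261 outside lymph nodes, but only 0 to 1.39 in lymph nodes, and the lymph node libraries are therefore described apart.

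A gene's level in a library is the mean over its 5 sgRNAs of log2(signal + 1), minus the same library's median over nontargeting sgRNAs, so that 0 marks a gene whose sgRNAs were as abundant as nontargeting ones. A change is the difference between group means of this level, on the log2(signal + 1) scale, which understates the loss of sgRNAs near 0. Genes are called depleted where limma's two-sided moderated test gave a lower level than in T0 with a p, adjusted by Benjamini-Hochberg over all 2078 genes, no higher than 0.05. At T0 the polymerase genes were close to the nontargeting sgRNAs, with mean levels from -0.37 to 0.78 and a median of 0.15, beside 0.21 over all genes. Their median was -0.26, -0.02 and 0.55 in T0 replicates 1, 2 and 3, so replicate 3 was the highest.

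Over the organs outside lymph nodes, 24 of the 26 polymerase genes were depleted against T0, and the only members that did not pass were Polr3g and Polr3gl. The comparison set the equal-weight mean of the 10 groups (tumour, lungs, liver, peritoneal metastases and spleen, each under IgG and anti-PD-1) against T0. Across the library, the same test called 318 of 2078 genes depleted, or 15.3%. The median change of the 26 genes was -4.94, beside -0.55 over all genes. All 5 Polr1 genes (median change -5.37), all 11 Polr2 genes (median -5.10) and 8 of 10 Polr3 genes (median -4.58, or -4.87 over the 8) were depleted. The ranges of the polymerases overlapped, running from -6.34 to -3.08 for Polr1 and from -6.09 to -2.96 for Polr2, and the depleted Polr3 genes reported by name lay between -5.57 and -3.07. With liver anti-PD-1 left out, the count was again 24. With the 10% of sgRNAs of lowest mean signal left out, 48 of the 130 polymerase sgRNAs and 23 of the genes remained, and 7 genes were depleted. The filter also lowered the count over all genes, to 136 from 318.

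The lowest change belonged to Polr1b, the second largest subunit of polymerase I and part of its catalytic centre. Its level was -0.42, -0.18 and 0.80 in the T0 libraries, and between -7.54 and -5.08 (median -6.39) in the 26 libraries outside lymph nodes. No library outside lymph nodes overlapped T0. The change was -6.34 ± 0.62 (SE, adjusted p = 8.70e-12), which is 81.2-fold lower. In signal, the mean over its 5 sgRNAs was 280, 303 and 428 in T0 and at most 29.5 in any of the 26 libraries, with a median of 5.66. Polr1a, the largest polymerase I subunit, changed by -5.37 ± 0.72 (adjusted p = 2.33e-08).

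Polr1d, a small subunit that polymerases I and III share, was the second lowest of the Polr1 genes. Its T0 levels were -0.08, -0.05 and 0.63, and outside lymph nodes they ran from -7.32 to -3.32 with a median of -5.32. Every library was below T0, and the highest of them was spleen anti-PD-1 replicate 3. The change was -5.66 ± 0.66 (SE, adjusted p = 8.75e-10). Polr1c, its partner in both enzymes, stood higher, with T0 levels of -0.53, -0.35 and -0.03 against -7.02 to -2.04 (median -3.46) outside lymph nodes. It changed by -3.41 ± 0.79 (SE, adjusted p = 0.000592), and again no library reached the T0 range.

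Polr1e encodes a subunit that is particular to polymerase I and had the smallest change of its group. The level was -0.59, -0.47 and -0.05 in T0 and ran from -7.11 to -1.12 (median -3.26) outside lymph nodes, the widest spread among the 26 genes (SD 1.60, n = 26). The change was -3.08 ± 0.85 (SE, adjusted p = 0.00482). This call rested on T0 replicate 3, without which the change was -2.92 and the adjusted p 0.0514.

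Among polymerase II genes, Polr2g and Polr2l changed most. Polr2g encodes a subunit of the stalk of the enzyme. Its T0 levels were -0.44, -0.44 and 0.82, whereas the 26 libraries ranged from -7.49 to -3.95 (median -6.13). The ranges did not overlap, and the change was -6.09 ± 0.68 (SE, adjusted p = 2.41e-10). Polr2l, one of the small subunits common to all 3 polymerases, had T0 levels of -0.22, 0.36 and 0.89 and ran from -7.25 to -4.06 (median -5.45) in the organs. It changed by -5.73 ± 0.66 (SE, adjusted p = 5.95e-10), and every organ library was below T0.

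The other common subunits were depleted as well. Polr2e had T0 levels of 0.34, 0.39 and 0.46 and organ levels from -7.17 to -2.32 (median -5.06), for a change of -5.24 ± 0.80 (SE, adjusted p = 4.29e-07). For Polr2h, the T0 levels of -0.47, -0.66 and 0.19 stood against -7.33 to -3.67 (median -5.27), a change of -5.10 ± 0.68 (SE, adjusted p = 2.06e-08). Polr2f went from -0.28, 0.00 and 0.65 in T0 to between -7.39 and -3.13 (median -4.81), a change of -4.84 ± 0.69 (SE, adjusted p = 1.01e-07). In each of these genes all 26 libraries were below all 3 T0 libraries. The 6 subunits that more than 1 polymerase uses had a median change of -5.17 (6 of 6 depleted), beside -5.37 for the 3 Polr1 genes, -4.99 for the 7 Polr2 genes and -4.58 for the 10 Polr3 genes that belong to a single enzyme (-4.87 without Polr3g and Polr3gl). No test of the difference between these lists was made.

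Polr2a, which encodes the largest subunit of polymerase II and carries its C-terminal repeat domain, had the smallest change of the polymerase II genes and of all 24 that were depleted. Its T0 levels were -0.21, 0.32 and 0.90, and the organ levels ran from -4.85 to 0.06 with a median of -3.03. In 24 of 26 libraries the level was below T0. The exceptions were liver anti-PD-1 (-0.19) and spleen anti-PD-1 replicate 3 (0.06), while spleen anti-PD-1 replicate 1 (-0.23) lay just under the T0 range. The change was -2.96 ± 0.77 (SE, adjusted p = 0.00257). Polr2b, its partner in the catalytic centre, changed by -5.43 ± 0.67 (SE, adjusted p = 3.42e-09). The remaining polymerase II subunits were Polr2i (-5.13), Polr2j (-4.99), Polr2c (-4.54) and Polr2d (-3.88), with adjusted p from 1.38e-08 to 1.26e-05. Polr2d forms the stalk together with Polr2g, and Polr2c is part of the assembly platform of the enzyme.

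In polymerase III, the losses included the catalytic centre. Polr3a, the largest catalytic subunit, had T0 levels of -0.54, -0.14 and 0.55 against -7.29 to -3.42 (median -5.46) outside lymph nodes, and changed by -5.57 ± 0.71 (SE, adjusted p = 8.09e-09). It had no organ library within the T0 range. Polr3b, the second catalytic subunit, changed by -5.33, Polr3c by -4.89, Polr3k by -4.85, Polr3e by -4.31, Polr3f by -3.47 and Polr3d by -3.07, and all passed the test (adjusted p from 4.36e-08 to 0.00132). Polr3c and Polr3f encode partners of the subcomplex that polymerase III uses to start transcription, and Polr3d and Polr3e encode partners of a heterodimer that resembles an initiation factor of polymerase II.

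Polr3g and Polr3gl were the members that did not pass. Polr3g, the third gene of the initiation subcomplex, had T0 levels of 0.28, 0.26 and 0.15 and organ levels from -2.42 to 1.06 (median -0.45). Polr3gl, its paralogue, had T0 levels of 0.58, 0.13 and 0.34 and organ levels from -2.34 to 0.86 (median 0.00). Most Polr3gl libraries lay near the nontargeting sgRNAs, and the low ones were lung libraries. The change was -0.63 ± 0.92 for Polr3g and -0.48 ± 0.82 for Polr3gl (SE, adjusted p = 0.934 for both). With libraries weighted by their spread, the changes were -0.64 and -0.53 and both passed (limma, adjusted p = 0.00398 and 0.0168). The median change over all genes was -0.55 in the main fit. The share of all genes that passed in the weighted fit is not given here, so these 2 calls cannot be set against the library. In signal, the mean over the 5 sgRNAs was 232 to 398 in T0 and 87.6 to 407 (median 194) in the organs for Polr3g. For Polr3gl it was 262 to 458 and 116 to 533 (median 235).

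Within each of the 26 organ libraries, Polr3g and Polr3gl both stood above all 8 other Polr3 genes. Each stood above all 24 other polymerase genes in 24 libraries. Libraries in which at least 1 of them did not were lung anti-PD-1 replicate 1, spleen IgG replicate 2 and spleen anti-PD-1 replicate 3. When the 26 changes were put in order, the step between Polr2a and Polr3g was 2.33, and every other step between neighbours was smaller than the sum of their standard errors, so the order of neighbours among the 24 depleted genes is not resolved.

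Apart from Polr2a, Polr3g and Polr3gl, all polymerase genes (23 of 26) had all 26 organ libraries below all 3 T0 libraries. Over the whole library this held for 16.2% of genes. For Polr3g, 21 organ libraries were below every T0 library, and for Polr3gl 14 were. T0 spread was small for the pair (SD 0.07 for Polr3g and 0.23 for Polr3gl, n = 3).

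At the level of single sgRNAs, 75 of the 130 (57.7%) were depleted in the mean of the 10 groups, where limma was fitted over all 10640 sgRNAs and called 7.85% of them depleted. A change below -1 was measured for 118 of 130. Under library weights 119 of the 130 passed, but the 7.85% does not belong to that fit. Its share over all sgRNAs was not computed, so the 119 cannot be set against the library. By polymerase, 15 of 25 Polr1, 34 of 55 Polr2 and 26 of 50 Polr3 sgRNAs passed. All 5 sgRNAs passed for both Polr1b and Polr1d. For Polr1b the sgRNA changes were between -7.32 and -5.40, and for Polr1d between -6.69 and -4.65.

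The smaller gene changes had 2 forms. In Polr1e no single sgRNA passed, and its 5 changes lay close together, from -3.73 to -2.17. In Polr1c, Polr2a and Polr3f, by contrast, 1 sgRNA or more stood near 0 while others of the same gene were lost. Polr1c sgRNA s_03012 changed by -6.05 ± 1.12 (SE, adjusted p = 0.00017) and s_03014 by -0.54 ± 1.70 (adjusted p = 1). Polr2a sgRNA s_03034 changed by -4.91 ± 1.39 (SE, adjusted p = 0.0172), whereas s_03033 and s_03035 changed by -1.88 and -0.59. For Polr3f, s_06042 changed by -5.20 ± 1.28 (SE, adjusted p = 0.0049) and s_06045 by 0.40 ± 1.66.

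Signal shows the same spread inside these genes. Polr3f s_06045 averaged 400 in T0 and had a median of 404 in the 26 organ libraries, with a lowest value of 69.3. Polr2a s_03035 averaged 320 in T0 and had an organ median of 157, while s_03034 fell from 401 to an organ median of 12.8. The 5 sgRNAs of Polr3d had changes from -4.19 to -2.04, with 1 past the threshold, and those of Polr3e had changes from -7.29 to -2.13, with 2 past it. How well each sgRNA cuts was not measured.

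The sgRNAs of Polr3g and Polr3gl did not include a depleted one. Those of Polr3g changed by -1.30 to -0.34 and those of Polr3gl by -0.83 to 0.18. The lowest was Polr3g s_05498, which averaged 167 in T0 and had an organ median of 61.3. It was the only one of the pair's sgRNAs with a change below -1.

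Many polymerase sgRNAs were not detected at all in the organs. Undetected is taken here as the lowest value of an sgRNA that at least 2 libraries of a replicate number share, and most of these shared values are small but above 0. No polymerase sgRNA was undetected in T0. Outside lymph nodes 20% to 76.9% of the 130 were undetected per library (median 43.8%), against 0.4% to 38.4% of the nontargeting sgRNAs (median 3%), and the polymerase share was the higher in 26 of 26 libraries. Over sgRNAs and organ libraries together, the share was 76.2% for Polr1b, 73.1% for Polr2g and 64.6% for both Polr2l and Polr3a. It was 21.5% for Polr1e and 25.4% for Polr2a. For Polr3g and Polr3gl it was 3.08% and 5.39%, beside 7.09% for the nontargeting sgRNAs.

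The sgRNAs undetected in the most organ libraries were chosen after their values were seen. Polr2j s_03044 was undetected in all 26 organ libraries, where its highest signal was 0.168, after a mean of 270 in T0. Polr3a s_08493 was undetected in 25 libraries and reached at most 3.12, from 157 in T0. Polr2l s_05202 was undetected in 25 as well, with a highest signal of 15.3, from 303 in T0. Polr3a s_08492 was also undetected in 25 but reached 129 in lung anti-PD-1 replicate 3, from 293 in T0. At the other end, 55 of the 130 polymerase sgRNAs were not called depleted.

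In the primary tumour, 22 of 26 genes were depleted under IgG and 20 under anti-PD-1, where 11.5% and 11.9% of all genes were called. Under IgG the genes that did not pass were Polr1e (-2.48), Polr3d (-2.74), Polr3g (-0.90) and Polr3gl (-0.28). Under anti-PD-1 they were Polr1c (-2.68), Polr1e (-2.80), Polr2a (-2.39), Polr3d (-2.07), Polr3g (-0.18) and Polr3gl (0.05). The tumour libraries had the fewest undetected sgRNAs, with 20% to 37.7% of the polymerase and 0.4% to 1.6% of the nontargeting sgRNAs. In the mean of both treatments Polr1b had the lowest change, with tumour levels of -6.41, -6.25 and -5.98 under IgG and of -6.52, -5.27 and -5.72 under anti-PD-1. Under anti-PD-1 alone, Polr3b (-6.34) and Polr2b (-5.95) had lower changes than Polr1b (-5.90).

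In the lungs, 24 genes were depleted under either treatment, with 18% of all genes called under IgG and 16.6% under anti-PD-1. Only the paralogue pair was left out, with changes of -1.81 and -1.63 for Polr3g and Polr3gl under IgG (adjusted p = 0.32 and 0.315, limma) and of -0.44 and -1.47 under anti-PD-1. Lung libraries had the largest losses of the library as a whole. Their median change was -1.21 over all genes, and 5.2% to 38.4% of the nontargeting sgRNAs were undetected. The median of the 26 polymerase genes was -5.61 there.

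In the liver, 21 genes were depleted under IgG (10.8% of all genes) and 15 under anti-PD-1 (6.16% of all genes). The liver anti-PD-1 values come from 1 library, and 9 of the 11 genes that did not pass there had changes between -3.90 and -0.52. These were Polr2f, Polr3b, Polr2d, Polr3f, Polr3k, Polr1e, Polr1c, Polr3d and Polr2a. Under IgG, Polr1c (-3.02), Polr3d (-2.86) and Polr3f (-2.03) did not pass, in addition to the pair.

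Peritoneal metastases had 20 depleted genes under IgG and 22 under anti-PD-1, with 11.2% and 13% of all genes called. Polr1e had its smallest change here, -1.54 under IgG (adjusted p = 1, limma) and -2.42 under anti-PD-1, and passed under neither treatment. Polr1c (-2.92), Polr3d (-2.86) and Polr3f (-3.07) did not pass under IgG, nor did Polr3d under anti-PD-1 (adjusted p = 0.319, limma). Without anti-PD-1 replicate 2, the library with the conflicting tissue label, 18 polymerase genes passed in that group. The count over all genes in that fit is not given here, so the 18 cannot be set against the library.

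In the spleen, 21 genes were depleted under IgG and 23 under anti-PD-1, with 12.2% and 12.8% of all genes called. Polr1c (-2.82), Polr1e (-2.51) and Polr3f (-2.71) did not pass under IgG. Under anti-PD-1, Polr2a (-1.36, adjusted p = 0.759, limma) was the only gene besides the pair. All 10 comparisons use the same 3 T0 libraries, so their calls are not independent of each other.

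A moderated F-test over the 5 organs, averaged over treatment, called 0 of the 26 genes and 0.241% of all genes. The authors had corrected batches between organs before deposit, and how far that changed differences between organs was not tested. At an unadjusted p under 0.05 the F-test found Polr3d (adjusted p = 0.378, limma) and Polr3e (adjusted p = 0.959, limma). The share of all genes under that unadjusted threshold is not given here. Polr3d levels in the lungs were -5.32, -4.33 and -4.40 under IgG and -3.24, -6.90 and -4.95 under anti-PD-1. In the primary tumour they were -3.02, -3.12 and -1.57 under IgG and -1.79, -1.94 and -1.96 under anti-PD-1. All 6 lung libraries were below all 6 tumour libraries. With the lymph node libraries left out of the fit, both genes passed (limma, adjusted p = 0.0249 for Polr3d and 0.0295 for Polr3e). In that fit 77 of all genes passed, in place of 5. Over all alternatives the adjusted p ran from 0.000606 to 1 for Polr3d and from 1.57e-05 to 1 for Polr3e. The median changes of the 26 genes were -4.65 in tumour, -5.61 in lungs, -4.50 in liver, -4.97 in peritoneal metastases and -4.77 in spleen, where those of all genes were -0.22, -1.21, -0.33, -0.52 and -0.58.

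Anti-PD-1 and IgG were compared within each organ and over the 5 organs outside lymph nodes. None of the 26 genes passed in any of these comparisons under limma, and the share of all genes that passed was 0 in tumour, lungs, liver, peritoneal metastases and spleen and 0.0962% in the mean of the 5 organs. At an unadjusted p under 0.05 there were 2 polymerase genes in the mean of the 5 organs, 2 in the lungs, 1 in the liver, 2 in the spleen and 0 in tumour and peritoneal metastases. The share of all genes under that threshold is not given here, so these counts cannot be set against the library. The median difference of the 26 genes in the mean of the 5 organs was 0.05, and 15 of 26 were higher under anti-PD-1.

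Polr2a had the largest difference between treatments. In the spleen its levels were -4.31, -3.52 and -2.81 under IgG and -0.23, -2.90 and 0.06 under anti-PD-1, which overlap through replicate 2. In the liver they were -3.30 and -4.18 under IgG and -0.19 in the only anti-PD-1 library. In the lungs they were -3.83, -3.37 and -4.85 under IgG and -1.87, -3.91 and -3.56 under anti-PD-1, which overlap.

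In the primary tumour the Polr2a levels were -2.47, -2.55 and -3.26 under IgG and -1.17, -2.50 and -2.47 under anti-PD-1, and in peritoneal metastases they were -3.33 and -3.03 against -1.09, -3.69 and -3.03. Each organ's difference, anti-PD-1 minus IgG, was above 0, at 0.71 in tumour, 0.90 in lungs, 3.55 in liver, 0.58 in peritoneal metastases and 2.53 in spleen. In the mean of the 5 organs the difference was 1.66 ± 0.52 (SE, unadjusted p = 0.00256, adjusted p = 1, limma). With the lymph node libraries left out of the fit, the difference was again 1.66 and the adjusted p 0.0331 (limma), where 10 of all genes passed. Over all alternatives the adjusted p of Polr2a ran from 0.000267 to 0.999. Polr3f had the opposite sign, at -1.10 ± 0.53 (unadjusted p = 0.0418, adjusted p = 1, limma).

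In lymph nodes the nontargeting sgRNAs were themselves mostly undetected, and a loss could not be measured against them. The undetected share was 46% to 94% of the nontargeting sgRNAs (median 78.6%) and 72.3% to 99.2% of the polymerase sgRNAs (median 93.5%), the polymerase share being the higher in 12 of 12 libraries. Of the Polr2f sgRNAs, 100% were undetected over all lymph node libraries, and of those of Polr1b, Polr1d, Polr3a and Polr3c 96.7% were. The lowest shares were 65% for Polr3g and 70% for Polr3gl, where the nontargeting sgRNAs had 72.1%.

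Against T0, none of the 26 genes was depleted in any of the 4 lymph node groups, nor was any gene of the library (0% of 2078). At an unadjusted p under 0.05, 0 polymerase genes were lower in any of them. The direction depended on centring, because with the values as deposited, all 26 were depleted in every lymph node group, as were at least 2059 of 2078 genes. Called enriched were 0 polymerase genes in draining nodes under IgG (35% of all genes), 2 in draining nodes under anti-PD-1 (28.2% of all genes), 0 in nondraining nodes under IgG (6.74% of all genes) and 0 there under anti-PD-1 (8.95% of all genes).

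The 2 enriched genes were Polr3g and Polr3gl. Under anti-PD-1 in the draining nodes, Polr3g had levels of 0.07, 5.71 and 4.44 and Polr3gl of 0.39, 7.37 and 5.84, and under IgG they had 0.05, 0.18 and 5.26 and 0.13, -0.33 and 3.73. A few libraries with high levels carried these means. The change under anti-PD-1 was 3.18 ± 1.23 for Polr3g (SE, adjusted p = 0.0466, limma) and 4.18 ± 1.09 for Polr3gl (SE, adjusted p = 0.00675, limma). With the values as deposited both were depleted instead, like the rest of the library.

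Between treatments in draining lymph nodes, 0 of the 26 genes passed (0.77% of all genes), and in nondraining nodes 0 passed (0.289% of all genes). Polr3gl differed by 3.36 ± 1.09 in draining nodes (SE, unadjusted p = 0.00334, adjusted p = 0.121, limma). It passed without anti-PD-1 replicate 1 (5.43, adjusted p = 0.0026, limma) and without IgG replicate 3 (4.64, adjusted p = 0.0253, limma). In these fits 82 and 23 of all genes passed. Over the other alternatives the adjusted p of Polr3gl ran from 0.00555 to 0.993. Set against the mean of the 4 lymph node groups, the mean of the 10 groups outside them was lower for 26 of 26 polymerase genes (median -4.99), where 100% of all genes to 3 digits were called (2077 of 2078, median -2.61). This comparison turned with centring as well. With the values as deposited, 24 polymerase genes were higher outside lymph nodes and 0 lower. Centring on the nontargeting mean gave 24 lower outside, beside 432 of 2078 genes.

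The library held 2 further polymerase I subunits under older symbols. Twistnb, which encodes a stalk subunit, changed by -5.36 ± 0.63 (SE, adjusted p = 1.03e-09) in the mean of the 10 groups outside lymph nodes, and Znrd1, which encodes a small subunit at the catalytic centre of polymerase I, by -3.93 ± 0.69 (SE, adjusted p = 7.00e-06). Both lie within the range of the Polr1 genes.

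For scale, other gene lists were read in the same comparison of the 10 groups with T0. Of 20 ribosomal protein genes, 19 were depleted with a median change of -5.76. Of 12 DNA polymerase and primase genes, 9 were depleted (median -4.48), and of 22 genes for ribonucleotide supply 12 were (median -3.26). The polymerase genes, with 24 of 26 and a median of -4.94, stood between the ribosomal protein and DNA polymerase lists by median. No test of the difference between lists was made.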

How the data were processed

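Integrated sgRNAs were sequenced from genomic DNA of sorted CD90.1+ OT-I T cells. The authors counted reads with MAGeCK-VISPR, normalized the counts to 250 nontargeting sgRNAs, corrected batches between organs with ComBat and excluded 2 samples. The deposited values are therefore a signal per sgRNA, not counts, and no count test was run.

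Groups came from sample titles. Gene levels are means of log2(value + 1) over 5 sgRNAs, minus the library's nontargeting median. A model with 1 mean for each group was fitted to the 41 libraries in limma 3.58.1 (R 4.3.3, prior variance 1.55 on 26.2 degrees of freedom), and p-values were adjusted by Benjamini-Hochberg over 2078 genes or 10640 sgRNAs at a threshold of 0.05. The fit was checked on simulated data. Every Polr gene was to be named, with values by library for the 2 lowest and the 1 highest gene of each polymerase and for shared subunits, but 1 gene counted here is not reported by name or value, and Polr3d was added after its values were seen. Members and lists were chosen with earlier results of these data known. The lymph node comparison was added after the values were seen. sgRNA sequences and genome coordinates were not used here. Alternatives are given in the closing section.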

Additional observations from a re-analysis of the deposited data

Results flagged for a closer look

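For 26 of 26 polymerase genes, the change against T0 differed between the mean of the 10 groups outside lymph nodes and the mean of the 4 lymph node groups, with a lower level outside (limma, adjusted p at most 0.05). The same was measured for 2077 of 2078 genes, and the direction turned with the values as deposited. The nontargeting sgRNAs used for centring were mostly undetected in lymph nodes, with a median signal of 0 to 1.39, and their part in the difference was not tested.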

How the results depend on the processing

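The count of 24 depleted genes in the mean of the 10 groups outside lymph nodes was 24 under 11 of 13 alternatives, 26 with library weights and 23 to 24 when libraries were left out in turn. For the fit with library weights, the count over all genes is not given here. The remaining alternative left out the 10% of sgRNAs with the lowest mean signal, so that 48 of 130 polymerase sgRNAs and 23 genes remained by construction. The count then was 7 in that mean, beside 136 of all genes. In primary tumour it was 1 under either treatment, beside 12 under IgG and 36 under anti-PD-1. Lungs had 9 and 10 under IgG and anti-PD-1, beside 156 and 154 of all genes. Liver had 2 under IgG, beside 22. Peritoneal metastases had 2 and 3 under IgG and anti-PD-1, beside 29 and 62, and spleen 1 and 4, beside 31 and 45. Of the sgRNAs, 2 passed. Only this filter changed the sign of a value in 1 of the 10 groups for a gene other than Polr3g and Polr3gl, in 1 case.

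Liver anti-PD-1, which is 1 library, had more depleted polymerase genes with only the groups compared in the fit and with library weights. In both settings more genes of the whole library were called depleted there as well. Library weights raised depleted polymerase sgRNAs to 119, and the share over all sgRNAs was not computed for that fit. With the values as deposited, 26 polymerase genes were depleted in each lymph node group, as were at least 2059 of all 2078 genes. Centring on the nontargeting mean gave 5 and 3 in draining nodes under IgG and anti-PD-1, beside 55 and 26 of all genes. The organ test called 3 polymerase genes with the median of the sgRNAs, beside 31 of all 2078 genes, and 1 with the values as deposited, beside 15. It called 2 without lymph node libraries, beside 77 of all genes, and 2 with library weights, beside 122. In the main fit it had called 5 of all genes.

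Anti-PD-1 against IgG in the mean of the 5 organs called 1 polymerase gene without lymph node libraries, beside 10 of all genes. With library weights it called 2, beside 75 of all genes. With the nontargeting mean and no lymph node libraries, a setting chosen after seeing the data, it called 1, beside 28. That setting also called 1 in the lungs, beside 74 of all genes. Library weights called 1 polymerase gene in tumour, 1 in spleen and 1 in draining nodes, beside 4, 2 and 7 of all genes. In draining nodes 1 was called with the nontargeting mean, with uncentred values and with the sgRNA median, beside 119, 55 and 40 of all genes. Leaving out libraries gave 0 to 1 there, and the 2 fits that gave 1 called 82 and 23 of all genes. The causes were not tested.

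The median correlation of deviations was -0.05 over 248 same-number pairs, and 8 of 40 libraries correlated best with their own number. The values had already been batch-corrected, so these correlations cannot tell whether the replicate numbers pair the libraries. The lowest values that libraries share do follow the replicate number. With the replicate number as a block, 24 polymerase genes and 77 of their sgRNAs were depleted in the mean of the 10 groups, and 17 in place of 15 genes in liver anti-PD-1. The shares over all genes and all sgRNAs in that fit are not given here. Without the only liver anti-PD-1 library, comparisons that need it gave no value. Read depth is unknown, and undetected sgRNAs limit how large a loss can be measured.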
